A study of Anthoceros agrestis with 2 samples.

Results

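In a CCG trinucleotide the first cytosine, here the outer cytosine, lies in a CHG context (H is A, C or T), and the next cytosine on the same strand, the inner cytosine, lies in a CG dinucleotide. The members described here were all CCG sites of the 6 chromosomes of *Anthoceros agrestis* in which both the outer and the inner cytosine were covered by at least 10 reads. They were chosen by sequence and coverage only, without use of the methylation level. There were 1186616 such sites, or 44.5% of 2665290 CCG sites with a listed inner CG, and they stood among 29884992 cytosines of all contexts with at least 10 reads.

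DNA came from 2 biological replicates of 4-wk-old vegetative thalli (gametophytes) of wild-type *A. agrestis*, Oxford strain, grown on Gamborg agar medium under continuous white light. Both replicates belong to 1 group, with no treatment, mutant or second tissue, so that all comparisons are between sites of the same plants. Cytosine methylation was measured by Enzymatic Methyl-seq, in which protected methylated cytosines are read as cytosine and the unmethylated ones as thymine. The level of a site was the percentage of its reads that called it methylated, and main values come from the report in which the reads of both replicates were merged. The 2 replicate reports held 280517454 and 283256775 calls on the chromosomes, and the median depth of a cytosine was 4 reads in each and 9 in the merged report.

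In flowering plants CG methylation is copied to the new DNA strand by the methyltransferase MET1, and CHG methylation is maintained by chromomethylases such as CMT3, which are recruited by methylation of histone H3. The complement of CAG is CTG, so both strands of such a site carry a CHG cytosine, whereas the complement of CCG is CGG and the outer cytosine has no CHG partner on the opposite strand. In *Arabidopsis thaliana* and the moss *Physcomitrium patens*, CCG is known to be a poorer substrate of chromomethylases than CAG and CTG, and its methylation is known to depend on the enzyme that maintains the inner CG.

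Pairs of sites from the 4 combinations of inner and outer level that recur below are shown first, to let the sequence around the cytosines be read beside their counts. Windows of 30 bases are given 5′ to 3′ on the strand of the site, with the CCG in capitals. Their bases were taken from the context columns of the deposited reports, and positions count from 1 in the Oxford assembly. Within each combination the sites shown had the most outer reads, up to a limit of 27 reads at either cytosine, among those that met the class in the merged report and in both replicates and whose window was complete. From the first to the last pair, 40803, 1637, 16789 and 89 sites met the class, and 2383, 188, 1619 and 10 of them had a complete window. Only bases inside the context of some cytosine are known in this way. Complete windows therefore lack longer runs of A and T, and they are not a sample of the sequences of a class. The annotation of these positions was not analysed here.

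In a first pair the inner CG was methylated and no read of the outer cytosine was. Site a1 lies at AnagrOXF.S1:17843932-17843961 on the minus strand, with its outer cytosine at position 17843947. Its outer cytosine was methylated in 0 of 26 reads, which allows a level of up to 11.5% (3 reads of the total, with an exact 95% upper bound of 13.2%), and its inner cytosine in 25 of 27 reads. The split was 0 of 17 outer reads in replicate 1 and 0 of 9 in replicate 2, against 17 of 17 and 8 of 10 inner reads. Site a2, at AnagrOXF.S1:30091261-30091290 on the minus strand, had 0 of 26 methylated outer reads and 27 of 27 methylated inner reads. In their 1 kb bins the CAG and CTG sites averaged 64.8% (a1) and 76.1% (a2).
site a1: gagcgcttcaagggCCGcacgcctcttaga
site a2: gacgagtgagggggCCGcggcctgggcagc

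In a second pair both cytosines were methylated. Site b1, at AnagrOXF.S2:26929196-26929225 on the plus strand, was methylated in 21 of 25 outer reads (84.0%, exact 95% confidence interval 63.9% to 95.5%) and in 24 of 25 inner reads. It is a CCGG, whose outer cytosine on the opposite strand was methylated in 5 of 24 reads. Site b2, at AnagrOXF.S1:4822609-4822638 on the minus strand, was methylated in 20 of 23 outer reads (87.0%, 66.4% to 97.2%) and in 23 of 23 inner reads. Intervals and limits of this kind cover counting error only.
site b1: gttgggagaagcatCCGgagctacggccta
site b2: ctccgtcgggccttCCGctcaggcttcgcc

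In another pair the outer cytosine was methylated in part of the reads in both replicates. Site c1, at AnagrOXF.S2:22948043-22948072 on the minus strand, was methylated in 16 of 27 outer reads (59.3%, 38.8% to 77.6%), split as 12 of 20 in replicate 1 and 4 of 7 in replicate 2, and in 27 of 27 inner reads. Site c2, at AnagrOXF.S2:25752955-25752984 on the minus strand, was methylated in 13 of 27 outer reads (48.1%, 28.7% to 68.1%), split as 8 of 16 and 5 of 11, and in 25 of 26 inner reads. A level of 40% to 60% in the merged report and in each replicate was the condition for this pair.
site c1: gggaagagctaccaCCGagggccagggacg
site c2: ccccgtcggccctaCCGacgaccttcctga

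The fourth pair belongs to a small class in which the outer cytosine was methylated and the inner was not. Site d1, at AnagrOXF.S2:18707635-18707664 on the plus strand, had 18 of 20 methylated outer reads (exact interval 68.3% to 98.8%) and 0 of 20 methylated inner reads, which allows an inner level of up to 15% (again 3 reads of the total). Site d2, at AnagrOXF.S1:19587836-19587865 on the plus strand, had 14 of 16 methylated outer reads (87.5%, 61.7% to 98.4%) and 0 of 17 methylated inner reads, which allows up to 17.6%. The CG cytosine of the opposite strand, which pairs with the G of the inner CG, had 0 reads at d1 and 1 read at d2. Of CCGG sites with a methylated outer cytosine on 1 strand only, 4 met the class in both replicates and none had a complete window.
site d1: gacggcgcgcttccCCGtcccgcacccggt
site d2: cccggccgccgagcCCGctcttgacgatgc

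The first comparison asked how the outer cytosine stands to its own inner CG. Over all members the outer level was 8.80% and the inner level was 33.5% in the merged reads. Replicate 1 had an outer level of 9.54% and replicate 2 one of 8.71% (9.13% ± 0.59, SD, n = 2), against inner levels of 35.4% and 33.5% (34.4% ± 1.4). The inner CG was close to all-or-none: 33.0% of members had an inner level of at least 80%, 62.0% had an inner level of 0, and 2.73% lay between 20% and 80%. The outer cytosine was not, since 0.477% of members had an outer level of at least 80%, 18.2% lay between 20% and 80%, and 71.4% were at 0.

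Outer methylation was found almost wholly at sites with a methylated inner CG. Where the inner level was at least 80% (391158 sites), the outer level averaged 25.8%, with 26.4% in replicate 1 and 25.5% in replicate 2 (25.9% ± 0.68). Where the inner level was below 20% (763070 sites), it averaged 0.172%, with 0.173% and 0.178% in the replicates (0.175% ± 0.0039). Between the classes the outer level differed by 25.8 points ± 0.68 (SD, n = 2), far more than the spread between replicates. With the inner CG at exactly 0 the outer level was 0.0963%.

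The relation ran in 1 direction. Of the sites with an outer level of at least 50%, 98.4% had an inner level of at least 80%, whereas 17.1% of the sites with an inner level of at least 80% had an outer level of at least 50%. Among 454885 members with a methylated read at either cytosine, the outer level exceeded the inner by more than 20 points at 745 sites (0.164%) and was lower by more than 20 points at 90.7%. Inner and outer calls of a site come largely from the same reads, since their depths differed by a mean of 0.165 reads. Each cytosine was nonetheless called on its own.

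Across classes of inner level the outer level was higher in each class from 60% upward, and its steepest differences were in the upper classes. It was 0.149% for an inner level below 10%, 2.23% from 10% to 20%, 3.16% from 20% to 30% and 5.10% from 30% to 40%. It was 6.72% from 40% to 50%, 6.71% from 50% to 60%, 7.34% from 60% to 70% and 9.88% from 70% to 80%. In the upper classes it was 17.9% from 80% to 90% and 26.5% from 90% on. In each replicate the outer level of a class was above that of the class before it, from below 10% to the top. Within the sites with an inner level of at least 80% the correlation of outer and inner level across sites was weak (r = 0.134, 391158 sites of shared reads and libraries).

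**Figure D1:**
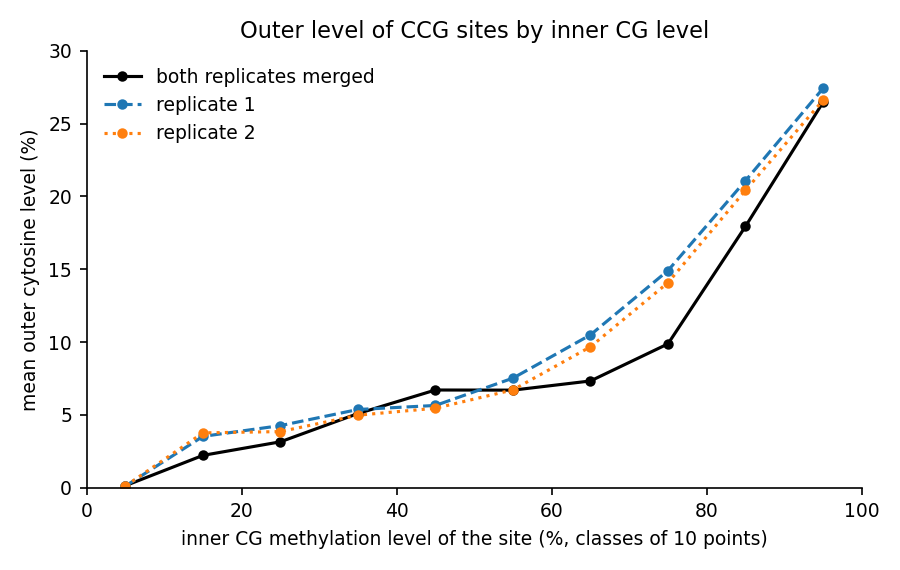
Mean level of the outer cytosine (y axis, %) for CCG sites in classes of 10 points of inner CG level (x axis, %), as lines for the merged reads (at least 10 reads) and for each replicate (at least 5 reads). The merged line stays under 10% up to an inner level of 80% and reaches 26.5% in the top class, and both replicates end between 26.6% and 27.4%.

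The second comparison set the outer cytosine against the CAG and CTG sites of the same 1 kb bin, the symmetric members of the CHG context. Where the inner level was at least 80% and the bin had at least 5 covered CAG and CTG sites (388254 sites), the outer level averaged 25.7% and the CAG and CTG level of the same bins 63.5%. The difference was -37.7 points in the merged reads, -37.8 in replicate 1 and -37.2 in replicate 2 (-37.5 ± 0.42, SD, n = 2). The ratio of the means was 0.406, with 0.411 and 0.406 in the replicates. In 90.3% of these sites the outer level was below the bin's CAG and CTG level. Among 31785 bins with at least 5 such sites, 93.2% had a lower outer mean, and the median bin had an outer level of 26.9% and a CAG and CTG level of 74.6%. Across these bins, which share libraries and reads, the correlation between both levels was r = 0.761.

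In points, the gap to CAG and CTG was wider in the higher classes of bin level. The bins were classed by the same CAG and CTG level that enters the gap, so the widening is partly set by the classing. These classes were not set in one replicate and measured in the other. In bins with a CAG and CTG level below 5%, which still held 42524 members with an inner level of at least 80%, the outer level was 0.778% and the CAG and CTG level 0.262%. In these bins a methylated inner CG, with a mean of 94.9%, went with an outer level below 1%, and 94.1% of the outer cytosines were at 0. In bins of 5% to 30% the outer level was 14.8% and that of CAG and CTG 18.5%. From 30% to 50% the values were 17.4% and 41.3%, from 50% to 70% they were 22.5% and 62.7%, and from 70% on they were 32.2% and 78.7%. The difference from 70% on was -46.7 points ± 0.078 (SD, n = 2). In a bin of mixed levels the members of this class were picked by their own inner CG, while all CAG and CTG sites of the bin entered its level, so the values of the middle classes are not matched site by site.

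With an unmethylated inner CG the outer cytosine was low in the same bins, except in the most methylated ones. For an inner level below 20% the outer level was 0.0959% in bins with CAG and CTG below 5%, 0.377% from 5% to 30%, 0.538% from 30% to 50% and 2.66% from 50% to 70%. In the class from 50% to 70% the outer level was therefore 19.9 points ± 0.26 higher with an inner level of at least 80% than with one below 20% (SD, n = 2). In bins of 70% or more only 851 members (0.340%) had an inner level below 20%. Their outer level was 29.3%, with 30.7% in replicate 1 and 30.9% in replicate 2, against 32.2% where the inner CG was methylated. The means were close but the sites were not alike. With an inner level below 20%, 55.7% of the outer cytosines were at 0 and 20.3% were at 80% or more. With an inner level of at least 80% these shares were 6.83% and 1.97%. The 20.3% are among the sites described below, whose inner base was not checked against the assembly.

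**Figure D2:**
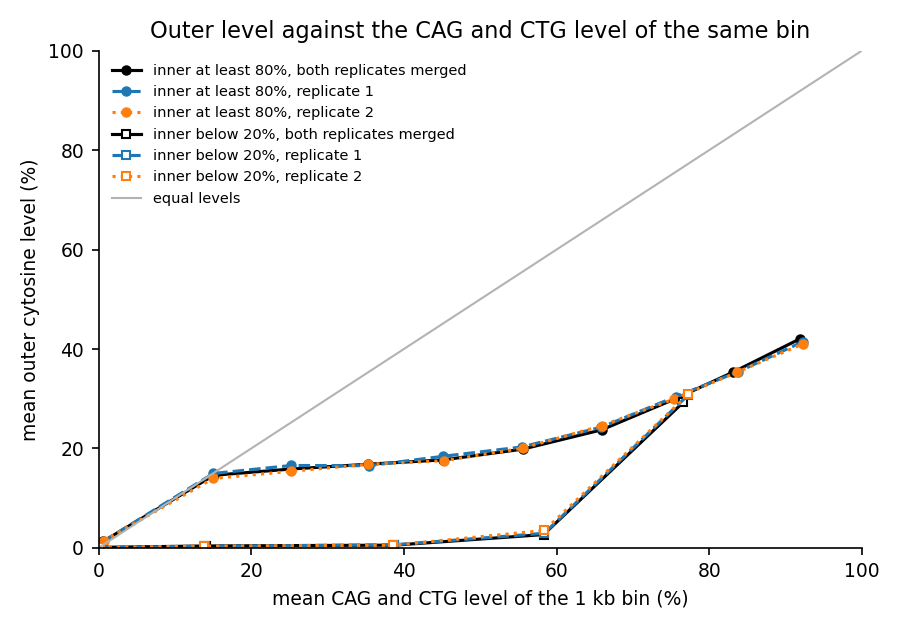
Mean outer level (y axis, %) against the mean CAG and CTG level of the 1 kb bin (x axis, %), for sites with an inner CG level of at least 80% in classes of 10 points (circles) and below 20% in 5 classes (squares), in the merged reads and in each replicate, with a grey line of equal levels. Circles lie near the grey line up to the class with a bin level of 15.1% and an outer level of 14.6% and fall away below it to 42.1% outer against 91.9% in the last class, while squares stay under 4% up to the class of 50% to 70%.

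The 281 sites with an outer level of at least 80% and an inner level below 20% stood apart in the coverage of the opposite strand. At 55.5% of them the opposite CG cytosine had no read at all, against 0.930% of the sites with an inner level of at least 80%, although the median outer depth was 12 reads in both. At 23 of them the opposite CG cytosine had at least 10 reads, and its mean level was 86.6%. The 281 sites lay in 176 bins of 1 kb, 61.6% of them in bins with a CAG and CTG level of at least 70%, against 62.9% of the sites with an inner level of at least 80%. On chromosome 6 lay 32.0% of them (90 sites), against 18.2% of the sites with an inner level of at least 80%. When the class was set in one replicate (5 reads), the other gave mean outer levels of 79.5% (replicate 1) and 77.4% (replicate 2) at the same sites, and mean inner levels of 2.37% and 0.618%. The mean levels of these sites were thus repeated between replicates. Low opposite-strand coverage went with the class in the merged reads, but the part of that coverage in the result was not tested. A thymine in the plants where the assembly has the inner cytosine would also be read as unmethylated, in both replicates, and the bases of the plants were not compared with the assembly here, so the inner levels of these sites, d1 and d2 included, hold only if the bases are the same.

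The third question was whether intermediate outer levels are even across sites or a mixture of methylated and unmethylated sites. Among members with an inner level of at least 80%, 19.3% of the outer cytosines were at 0, 25.3% above 0 and below 20%, 54.0% between 20% and 80%, and 1.37% at 80% or more. The quartiles were 8.33%, 22.2% and 40%. Between 20% and 80% the share was 51.6% in replicate 1 and 50.6% in replicate 2. The outer shares depended on the reads required: in the replicates, with at least 5 reads, 28.99% and 30.04% of the outer cytosines were at 0, and 3.91% and 3.54% were at 80% or more. Sites at 80% or more were thus a small share in the merged reads and in both replicates. Of the inner CG of the same bins, 78.2% were at 80% or more. Each of these bins was picked by an inner CG of at least 80%, which raises that share. The shares over all members, given above, were taken without such a choice.

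Restricting the view to methylated bins, with a CAG and CTG level of at least 50%, left the outer cytosine with a broad range and few extremes. There 8.63% of the outer cytosines with a methylated inner CG were at 0, 63.1% lay between 20% and 80%, and 1.66% were at 80% or more, with a mean of 30.1% and quartiles of 14.3% and 44.4%. CAG sites of these bins averaged 77.5%, with 0.721% at 0 and 57.5% at 80% or more. CTG sites averaged 73.2%, with 0.859% at 0 and 47.9% at 80% or more. These bins were picked by the CAG and CTG level itself, so the bins were also picked in one replicate and measured in the other. The outer level was then 30.3% ± 0.80, that of CAG 77.2% ± 1.6 and that of CTG 73.0% ± 1.0 (SD, n = 2), and the outer level was lower than CAG by 46.9 points ± 0.76 and lower than CTG by 42.7 points ± 0.21.

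**Figure D3:**
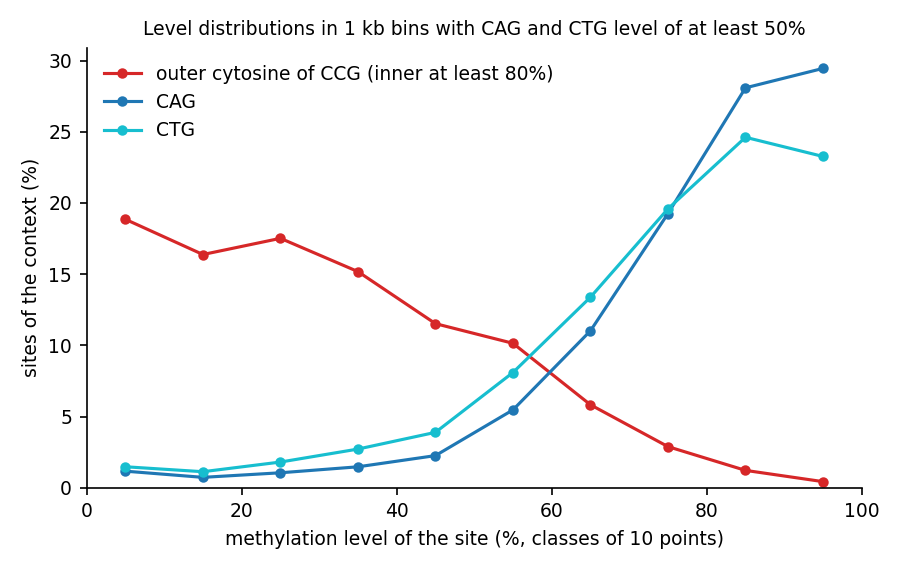
Share of sites (y axis, %) in classes of 10 points of methylation level (x axis, %), in bins of 1 kb with a CAG and CTG level of at least 50%, for outer cytosines with an inner CG level of at least 80%, CAG and CTG sites, merged reads. The outer curve is highest below 40%, with 18.9% of the sites in the lowest class and 0.435% in the highest, whereas CAG and CTG are highest above 80%.

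Part of the width comes from counting few reads, and this part was taken out by the binomial variance of each site. In the methylated bins the variance of the outer level was 33.4% counting, 13.2% between bins and 53.3% between sites of the same bin. As SDs these were 11.9 points from counting, 7.49 points between bins and 15.05 points between sites within a bin. CAG sites of these bins had 12.4 points and CTG sites 14.96 points between sites within a bin. The SD of the outer cytosines was thus close to that of CTG sites, at a much lower mean. The outer cytosines were picked by a methylated inner CG, whereas all covered CAG and CTG sites of the bins entered, so the sets are not matched. The 12 combinations of the base before and the base after CCG, described below, took up 30.6% of the variance between sites within a bin, with 32.0% in replicate 1 and 31.5% in replicate 2.

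Levels of single sites were repeated between replicates. Classes were set in one replicate (at least 10 reads, inner level of at least 80%) and the outer level was read in the other (at least 5 reads). Sites at 0 in one replicate averaged 5.93% ± 0.013 in the other, and 69.8% of them were at 0 again. Sites from 20% to 40% averaged 29.2% ± 1.2, and sites from 40% to 60% averaged 42.4% ± 1.1, with 3.22% at 0 and 4.23% at 80% or more. Sites at 80% or more averaged 64.1% when read in replicate 1 and 61.8% when read in replicate 2, and 23.6% of them were at 80% or more again. Intermediate classes thus stayed intermediate on average. The share of 23.6% was well above the share of all outer cytosines with a methylated inner CG at this level, given above for each replicate. A class picked by an extreme level in one replicate is also drawn toward the mean by counting error, which was not taken out here. Across these sites the levels of both replicates had a correlation of r = 0.668 (mean of both directions).

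Depth moved with the shape of the distribution. With 10 to 12 outer reads, 21.5% of the outer cytosines with a methylated inner CG were at 0 and their mean was 25.6%, whereas with 20 to 27 reads 8.94% were at 0 and their mean was 29.2%. At 28 reads or more (8611 sites) 1.25% were at 0, 71.5% lay between 20% and 80%, 0.476% were at 80% or more, and the mean was 32.4%. The part of depth in these shares was not tested, and deeper sites are also a different set of sites.

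The bases next to CCG separated outer levels at nearly equal inner levels. With an inner level of at least 80%, the outer level was 16.1% in CCGC, 26.04% in CCGA, 28.8% in CCGT and 31.8% in CCGG, and each of the contexts made up 23.6% to 26.5% of these sites. In the replicates CCGC had 16.6% and 15.9%, and CCGG had 32.6% and 31.5%. CCGG exceeded CCGC by 15.8 points ± 0.27, CCGT exceeded CCGA by 2.70 points ± 0.17, and CCGG exceeded CCGT by 3.11 points ± 0.16 (SD, n = 2). The inner CG level was 96.2% to 96.8% and the CAG and CTG level of the bins 61.5% to 64.9% in all 4 contexts. Both ranges were far smaller than that of the outer level, but the inner range is limited by the condition of at least 80%. The share of members that met this condition ran from 31.3% in CCGC to 34.9% in CCGA.

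A G before the CCG went with a lower outer level. The outer level was 19.2% in GCCG, 28.2% in CCCG and 28.2% where the base before was A or T, which were counted together. The difference of G to A or T was -9.03 points ± 0.39 and that of G to C -8.90 points ± 0.42 (SD, n = 2). The bins had CAG and CTG levels of 64.0% for G, 65.7% for C and 62.2% for A or T. Both bases together spanned the range from 11.3% in GCCGC (25096 sites) to 35.2% in CCCGG (22855 sites). In bins with a CAG and CTG level of at least 50% the lowest and the highest class were GCCGC with 13.2% and CCGG after A or T with 39.8%. Single sites departed from these means: a1 and a2 above are GCCGC and b1 is a CCGG after T, but b2, methylated in 20 of 23 outer reads, is a CCGC.

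The CCGG sites allow the outer cytosines of both strands to be set against each other, since CCGG reads the same on both strands. Of 95167 CCGG with at least 10 reads at all 4 cytosines, 27468 had an inner level of at least 80% on both strands. The outer level was 31.4% on the plus strand and 31.4% on the minus strand. The correlation of both outer levels was r = 0.552 across these palindromes, and 0.455 and 0.441 in the replicates. Their difference had an SD of 21.6 points, against 16.3 points from counting alone. Both outer cytosines were below 20% in 21.7% of the palindromes, both were at 80% or more in 83, and 1 was at 80% or more with the other below 20% in 58. Of all CCGG outer cytosines with an inner level of at least 80%, 2.63% were at 80% or more, so neither of the last kinds could be frequent. Their counts were not compared with those expected from this share. Over all members with an inner level of at least 80% the outer level was 25.8% on either strand.

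In CCCG the cytosine before the outer one had a low level. With an inner level of at least 80% (90159 sites), the levels along CCCG were 1.14%, 28.2% and 96.1% from the first to the third cytosine. With an inner level below 20% (189215 sites), the first cytosine had 0.0897%. In bins with a CAG and CTG level of at least 50% the first cytosine of CCCG with an inner level of at least 80% had 1.26%. The first cytosine of a CCC without a following G had 1.06% in these bins, with no condition on a CG. The difference of 0.201 points (0.226 ± 0.027 over the replicates, SD, n = 2) was small but larger than the spread between replicates. Only the CCCG sites were picked by a methylated CG, so the sets are not matched.

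CCG sites up to 1000 bases apart shared part of their outer level. Among members with an inner level of at least 80%, the outer levels of neighbours on the plus strand had a correlation of r = 0.333 at 3 to 10 bases, 0.363 at 11 to 30 bases, 0.274 at 31 to 100 bases and 0.313 at 301 to 1000 bases. Close neighbours share reads as well as surroundings. Counting error of single sites was not taken out of these correlations. In bins with a methylated member the inner CG of CCG sites averaged 78.4%, against 77.2% for CG not preceded by C. Each of these bins was picked by an inner CG of at least 80%, which raises the inner mean. The levels are therefore not an even comparison.

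The last comparison was between chromosome 6 and chromosomes 1 to 5. On chromosome 6, 30.5% of the CCG sites were members, against 46.2% on chromosomes 1 to 5, so coverage differed between them. Chromosome 6 held 88523 members, of which 80.5% had an inner level of at least 80%, against 29.1% of 1098093 members on chromosomes 1 to 5. Over all members the outer level was 24.4% on chromosome 6 and 7.54% on chromosomes 1 to 5, a difference of 16.8 points ± 0.36 (SD, n = 2) that goes with the difference in the inner CG.

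At sites with an inner level of at least 80%, the difference was smaller. The outer level was 29.4% on chromosome 6 (29.5% ± 0.74 over the replicates), against 24.98% on chromosomes 1 to 5 (25.15% ± 0.66). Single chromosomes had 25.1%, 24.5%, 25.7%, 25.04% and 24.6% from chromosome 1 to 5, with SDs of 0.51 to 0.73 points between replicates. Chromosome 3 was the highest of these 5 in both replicates, whereas the order of chromosomes 1 and 4 and that of chromosomes 2 and 5 differed between the replicates. The difference was 4.42 points in the merged reads and 4.32 points ± 0.086 over the replicates (SD, n = 2). It fell to 0.709 points with a minimum of 20 reads, which left 6926 such sites on chromosome 6.

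The CAG and CTG level of the bins differed in the same direction, with 73.4% on chromosome 6 and 61.2% on chromosomes 1 to 5, a difference of 12.2 points ± 0.0021. The ratio of outer to CAG and CTG level was 0.4004 on chromosome 6 and 0.407 on chromosomes 1 to 5 (0.401 ± 0.0043 and 0.410 ± 0.0034). At matched bin levels the order of the chromosomes depended on the class. In bins of 50% to 70% the merged outer level was 25.4% on chromosome 6 and 22.1% on chromosomes 1 to 5, a difference of 3.35 points (2.73 ± 0.71 over the replicates). In bins of 70% or more it was 31.3% on chromosome 6 and 32.5% on chromosomes 1 to 5, a difference of -1.19 points (-1.30 ± 0.060 over the replicates).

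**Figure D4:**
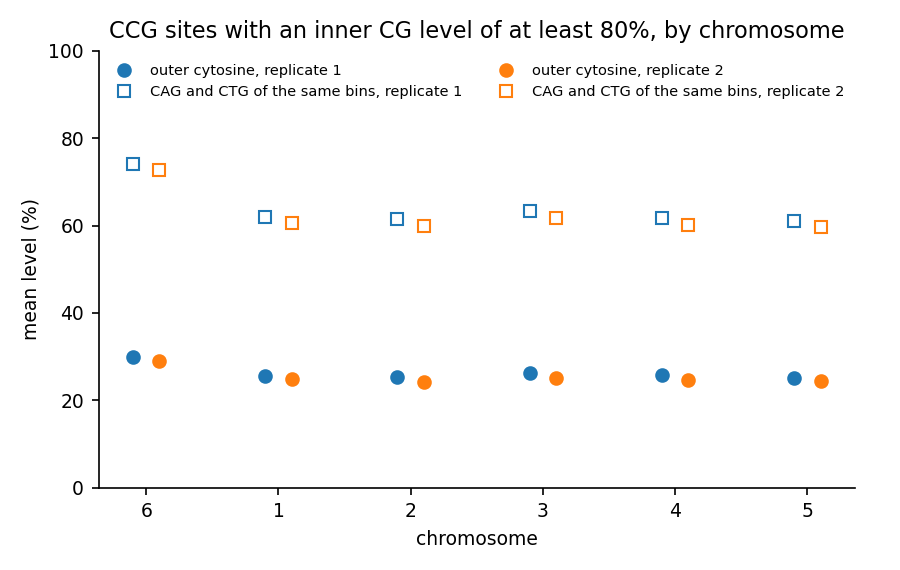
Mean outer level (filled circles) and mean CAG and CTG level of the same bins (open squares; y axis, %) at CCG sites with an inner CG level of at least 80%, for chromosomes 6 and 1 to 5 (x axis), with each replicate as its own point. Outer points lie at or above 28.9% on chromosome 6 and between 24.2% and 26.3% on the others, and the squares are also highest on chromosome 6.

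Along the chromosomes the outer level followed the CAG and CTG level closely. All 121 full blocks of 1 Mb held at least 500 members with an inner level of at least 80%. Their outer level ranged from 19.0% to 31.9%, with a median of 24.6%, and their CAG and CTG level from 47.9% to 76.8%. The ratio of both stayed between 0.378 and 0.437, and the correlation across blocks of shared libraries was r = 0.954. On chromosome 6 the 11 blocks had 27.8% to 31.9%, and the 110 blocks of chromosomes 1 to 5 had 19.0% to 30.9%, so the ranges overlapped. The highest block was AnagrOXF.S6:10000001-11000000, with 32.2% ± 0.45 over the replicates (SD, n = 2). The lowest was AnagrOXF.S2:25000001-26000000, with 19.3% ± 0.87.

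**Figure D5:**
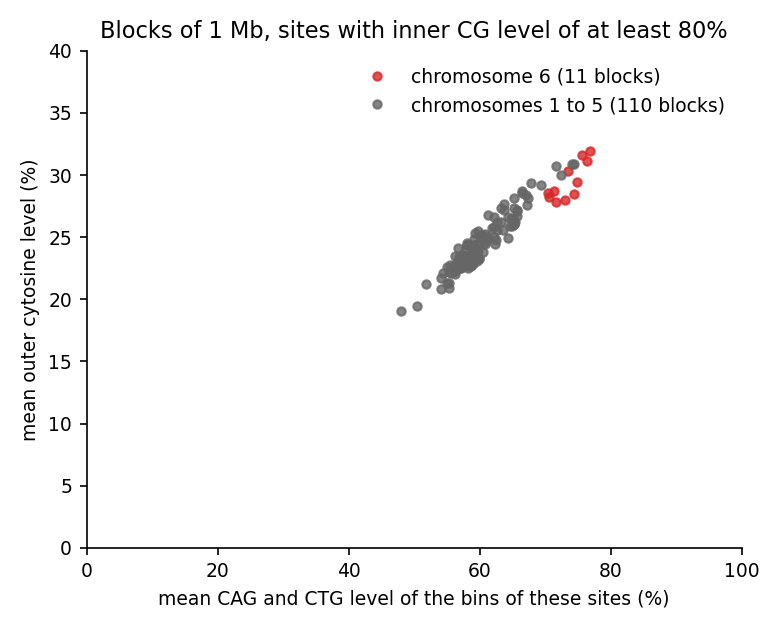
Mean outer level (y axis, %) against the mean CAG and CTG level of the same bins (x axis, %) for sites with an inner CG level of at least 80%, 1 point per full block of 1 Mb, chromosome 6 in red and chromosomes 1 to 5 in grey. Points form a band from 47.9% and 19.0% at its lower end to 76.8% and 31.9% at its upper end.

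Genes and transposable elements (TEs) could be examined for the first 2000 entries of each of the study's lists, whose further entries were not used here. All of these entries are assigned to the cluster numbered 1 of a grouping by histone marks, so they are not a sample of the genome. In the 2000 genes 51771 members had an outer level of 0.320% and an inner level of 1.33%. In the 1996 TEs on the chromosomes 9712 members had 1.37% and 5.50%. The few members with an inner level of at least 80% had outer levels of 20.7% in the genes (456 sites) and 25.4% in the TEs (418 sites), against 25.8% over the genome.

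Among 1564 genes with at least 10 members, 5 had an inner level of at least 50% in both replicates. Gene AnagrOXF.S1G044400 (AnagrOXF.S1:2274510-2275139) had an outer level of 26.6% and an inner level of 97.6% over 16 members, with outer levels of 19.8% in replicate 1 and 33.1% in replicate 2. Gene AnagrOXF.S3G002900 (AnagrOXF.S3:245049-247461) had 23.3% and 78.4% over 63 members, and gene AnagrOXF.S1G505100 (AnagrOXF.S1:23441867-23446037) had 19.0% and 78.2% over 34 members. No function of these genes is given in the files. With few sites per gene the replicate SDs of the outer level were 2.70 to 9.42 points, too wide to order the genes.

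Among 674 TEs with at least 5 members, 18 had an inner level of at least 50% in both replicates. TE_homo_35661 (AnagrOXF.S2:18336347-18337172) had an outer level of 24.45% and an inner level of 98.5% over 26 members. TE_homo_36983 (AnagrOXF.S2:20196344-20198214) had an outer level of 45.4% and an inner level of 97.2% over 14 members, with outer levels of 46.5% in replicate 1 and 45.9% in replicate 2. TE_homo_54707 (AnagrOXF.S3:15941230-15941459) had 22.0% and 96.25% over 7 members, of which 1 was covered in replicate 2. The named genes and TEs were chosen by their inner level, so their gap between outer and inner level is a description.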

How the data were processed

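For every cytosine of the Oxford assembly the authors gave raw counts, without normalization, of the reads that called it methylated or not. There are 3 such deposited reports, 1 per replicate and 1 from the reads of both merged before mapping. Per the methods and the submitters' processing notes, reads were merged and converted with SAMtools 1.9 and bedtools 2.27.1, trimmed with Trim Galore, mapped with Bismark and Bowtie2 and deduplicated. Only the 6 chromosomes were used. Levels of low-depth sites are coarse: the median depth of members was 12 reads merged and 6 and 7 in the replicates, in which at least 5 reads were required at both cytosines.

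From the counts, the level of each site and unweighted means over sites were computed (Python 3.11.15, NumPy 2.4.6, SciPy 1.17.1 for exact intervals, Matplotlib 3.10.9). The variance from counting was the mean of level times its complement over depth minus 1. Its fraction was taken of the sum of the parts from counting, between bins and within bins. With 1 group and 2 replicates no test was made, and differences are read against the SD between replicates, whose separate culture is not described further. Sites, genes, TEs and blocks were named by fixed rules: the sites with most reads (at most 27) per class, the 3 genes with at least 10 members and the 3 TEs with at least 5 that had the highest inner level, and the blocks with the lowest and highest outer level. The members, lists and rules were chosen with earlier results of these data known. Coverage minimums of 5 and 20 reads, an upper limit of 27 reads, the sum of the replicate reports, read-weighted means, single replicates and other limits and bin sizes were tried. The calculation was tested on simulated reads at the real positions and recovered 7 known values within 0.5 points.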

Additional observations from a re-analysis of the deposited data

How the results depend on the processing

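No paired analysis was possible because there was 1 group of samples and so no groups to pair, while differences between sites were taken within each replicate. Of 43 values under alternatives, 26 moved by more than the replicate SD, and the differences to CAG and CTG and of chromosome 6 kept their sign. With a minimum of 5 reads, the outer level over all members was 9.80%, that at inner levels below 20% was 0.277%, and the difference of chromosome 6 to chromosomes 1 to 5 was 3.96 points. With a minimum of 20 reads, which kept 49404 members, the 6 results were 16.7% (all members), 30.3% (inner level of at least 80%), 0.559% (below 20%), -40.3 points (against CAG and CTG), 66.1% (share from 20% to 80%) and 0.709 points (chromosome 6), and the cause was not tested. At most 27 reads gave 0.166% at inner levels below 20%. Read-weighted levels gave 0.194% there, -37.2 points against CAG and CTG, and 4.14 points for chromosome 6. An inner limit of 50% gave an outer level of 24.9%, -36.8 points, a share of 52.1% and 4.83 points, and a limit of 95% gave 27.6%, -38.1 points, 56.9% and 3.91 points. With the inner CG at 0 the outer level was 0.0963%. Against CAG and CTG, bins of 500 bp gave -38.8 points, bins of 2 kb -35.3 points, and sites within 100 bases, chosen after seeing the data, -39.3 points. From 10% to 90% the share was 70.1%. Single replicates gave 8.71% to 9.54% over all members, 25.5% to 26.4% and 0.173% to 0.178% in the inner classes, -37.8 to -37.2 points, 50.6% to 51.6%, and 4.26 to 4.38 points. With a median of 12 reads the level of a single site is coarse, and the part of depth in the shares at 0 and at 80% or more was not tested.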
